A study of Homo sapiens with 24 samples.

Results

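The thioredoxin and cytosolic peroxiredoxin system was followed across the 4 siRNA groups of this study through 9 genes chosen by name: TXNRD1, TXN, SRXN1, PRDX1, PRDX2, PRDX6, TXNIP, SOD1 and CAT. Of these, 8 were matched by symbol among 24053 gene identifiers, and all 8 were among the 13810 genes tested. TXNIP, the alpha-arrestin that binds and inhibits thioredoxin, was not matched and is not analysed here. The measured values were TPM, a unit corrected for transcript length in which every sample has the same sum.

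RNA was sequenced from ARPE-19 cells, an established human line derived from the retinal pigment epithelium. Its groups were the double siRNA against Nrf2 and Pink1 (Nrf2-Pink1 siRNA), Nrf2 siRNA, Pink1 siRNA and a scrambled control siRNA (scramble), with 3 biological samples per group and 2 technical replicates of each. Some labels call the siRNA groups knockouts, whereas the design text speaks of siRNA, and they are called siRNA groups here. The protocols also describe scratch wounding of the cultures, and the labels do not say whether the cells that gave RNA had been wounded. All 4 groups share this cell line, a line adapted to culture, and the labels do not say whether biological replicates were separate cultures. The p-values therefore set differences against the spread between these samples, which may be technical in part.

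Thioredoxin is a small protein that reduces disulfides in other proteins, and thioredoxin reductase 1, a selenoprotein, returns it to the reduced state with electrons from NADPH. Peroxiredoxins remove hydrogen peroxide with a cysteine that thioredoxin or, for PRDX6, glutathione restores, and sulfiredoxin rescues peroxiredoxins that have been over-oxidised. Superoxide dismutase 1 supplies hydrogen peroxide from superoxide and catalase destroys it in peroxisomes. The transcription factor NRF2, encoded by NFE2L2, is known to drive several of these genes through antioxidant response elements, and the retinal pigment epithelium is a tissue under a high oxidative load.

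The promoter windows of TXNRD1 are shown because it was the only one of the 8 genes that passed a test in any comparison and NRF2 was one of the siRNA targets. The sequences are from RefSeq on GRCh38.p14, 300 bases each, with 250 bases before an annotated start and 50 from it, read 5′ to 3′ on the plus strand, which is the strand of the gene. Capitals mark matches to TGACNNNGC, the core of the antioxidant response element, or to its reverse complement GCNNNGTCA.
TXNRD1, chr12:104215529-104215828: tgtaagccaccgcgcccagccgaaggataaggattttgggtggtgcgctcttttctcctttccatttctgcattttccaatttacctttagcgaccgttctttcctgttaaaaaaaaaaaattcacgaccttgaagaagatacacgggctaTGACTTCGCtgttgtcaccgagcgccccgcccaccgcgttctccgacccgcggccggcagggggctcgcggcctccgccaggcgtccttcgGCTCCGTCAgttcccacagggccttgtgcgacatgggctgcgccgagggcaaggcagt
TXNRD1, chr12:104286782-104287081: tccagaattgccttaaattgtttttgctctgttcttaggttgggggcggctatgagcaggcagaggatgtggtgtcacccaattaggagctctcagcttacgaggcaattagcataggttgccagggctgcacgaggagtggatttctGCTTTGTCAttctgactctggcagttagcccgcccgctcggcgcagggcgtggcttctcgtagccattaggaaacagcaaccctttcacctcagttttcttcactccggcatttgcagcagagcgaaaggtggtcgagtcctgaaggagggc
In the first window TGACTTCGC began 99 bases before the start and GCTCCGTCA, on the other strand, began 8 bases before it. In the second window GCTTTGTCA, on the other strand, began 102 bases before the start. Over 35116 such windows of all genes, 13.3% held at least 1 match on either strand, so these letters alone are common. TXN, SRXN1, PRDX2 and CAT each had 1 window, with no match. Bases outside the windows were not searched, so these genes may have matches elsewhere. The E-box CACGTG was found in 7.26% of all windows and in none of the 6 windows of these genes. No window was at hand for PRDX1, PRDX6 and SOD1.

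TXNRD1 ends in a feature shared with few other genes, a TGA codon read as selenocysteine just before the stop codon. The last 30 coding bases of transcript ENST00000503506 (GENCODE release 29) are printed with that codon in capitals.
TXNRD1, coding end: agcatcctccaggctggctgcTGAggttaa
The selenocysteine codon is number 498 of 500 codons, counting the stop codon, so the residue that carries the reductase activity is added almost at the end of translation. These data measure the message and not the selenoprotein.

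Both siRNA targets were lower in their own groups. NFE2L2 stood at 28.9 ± 6.16 TPM with the double siRNA and 20.025 ± 7.72 TPM with Nrf2 siRNA, 35.8% and 24.8% of the scramble mean, against 68.7 ± 4.02 TPM with Pink1 siRNA and 80.7 ± 7.69 TPM with scramble (SD, n = 3 each). PINK1, the mitochondrial kinase, stood at 18.7 ± 2.93 TPM with the double siRNA and 14.6 ± 3.22 TPM with Pink1 siRNA, against 57.2 ± 8.35 TPM with Nrf2 siRNA and 55.8 ± 1.93 TPM with scramble. The depth behind the TPM is unknown. Of 9 markers of the retinal pigment epithelium, 8 reached 1 TPM in at least 1 sample; the visual cycle enzyme RPE65 did not exceed 0.36 TPM, and RLBP1 did not exceed 3.69 TPM. Summed, the 9 markers stood at 1714 to 2012 TPM with the double siRNA, 1349 to 1641 TPM with Nrf2 siRNA, 1548 to 2193 TPM with Pink1 siRNA and 1732 to 1971 TPM with scramble, of which the keratins KRT8 and KRT18 made up 87.2 to 93.0%. The other 7 summed to 142 to 257 TPM with the double siRNA, 155 to 181 TPM with Nrf2 siRNA and 187 to 249 TPM with Pink1 siRNA, against 137 to 142 TPM with scramble. Of these the pigment enzyme TYRP1 averaged 26.6 ± 7.11 TPM with the double siRNA, 23.2 ± 1.84 TPM with Nrf2 siRNA and 45.5 ± 6.70 TPM with Pink1 siRNA, against 9.92 ± 1.70 TPM with scramble. MITF, OTX2 and RLBP1 also had higher means in every siRNA group than with scramble. In the same order of groups, PMEL averaged 4.12, 6.98 and 4.83 TPM, against 5.08 TPM with scramble. BEST1 averaged 6.13, 4.98 and 6.40 TPM, against 5.90 TPM. Among markers of other cells, PTPRC did not exceed 0.445 TPM and VWF did not exceed 0.675 TPM, and MAP2 lay between 11.5 and 21.1 TPM. CD68, a lysosomal protein abundant in macrophages, averaged 40.4 ± 10.4 TPM with the double siRNA, 66.6 ± 33.5 TPM with Nrf2 siRNA, 28.9 ± 3.19 TPM with Pink1 siRNA and 30.3 ± 9.80 TPM with scramble. The part of these markers in the results was not tested. A single identifier with no entry in the name table, ENSG00000226958, took 41.4, 29.4 and 15.5% of all TPM in double-siRNA replicates 1, 2 and 3, 29.9 to 38.6% with Nrf2 siRNA, 24.9 to 35.5% with Pink1 siRNA and 32.4 to 36.4% with scramble, and TPM of all other genes is the remainder.

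TXNRD1, the cytosolic reductase at the head of the system, fell with Nrf2 siRNA and was the gene of the 8 with the largest difference in that group. It had 307, 246 and 284 TPM with Nrf2 siRNA, against 529.9, 513.5 and 497 TPM with scramble. Every Nrf2-siRNA sample lay below every scramble sample, and the group means were 279 ± 31.1 TPM and 514 ± 16.2 TPM (SD, n = 3 each). The Nrf2-siRNA mean was 54.3% of the scramble mean. In the limma fit the log2 difference was -0.88 (SE 0.141, 95% interval -1.19 to -0.58), a 0.542-fold level with adjusted p = 0.0236. It ranked 16 of 13810 genes by p, and, with ENSG00000226958 removed and each sample rescaled, the difference was -0.90 (adjusted p = 0.00317). Among 1020 genes that averaged 100 TPM or more only 9 had a lower log2 difference than TXNRD1. In bulk RNA, fewer cells expressing a gene and less RNA per cell cannot be told apart.

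With the double siRNA TXNRD1 was lower too, at 301, 383 and 355 TPM, against the same scramble samples. No double-siRNA sample reached the lowest scramble sample, and the mean was 346 ± 41.5 TPM, 67.5% of scramble. The log2 difference of -0.57 (95% interval -0.88 to -0.27) did not pass over all genes (limma, adjusted p = 0.0868). It passed when ENSG00000226958 was removed and each sample rescaled (log2 difference -0.68, adjusted p = 0.00777), and after median-of-ratios rescaling (-0.59, adjusted p = 0.00971).

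With Pink1 siRNA no difference in TXNRD1 was detected. It had 499, 549 and 574 TPM with Pink1 siRNA, a mean of 541 ± 38.3 TPM, and the samples overlapped those of scramble. The log2 difference was 0.07 (95% interval -0.23 to 0.38; limma, adjusted p = 0.881), so a rise or a fall within that interval was not excluded by these samples.

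The double siRNA against each single siRNA asks what the second siRNA added. Against Pink1 siRNA, TXNRD1 was lower in every double-siRNA sample, with a log2 difference of -0.65 (95% interval -0.95 to -0.34; limma, adjusted p = 0.196); after removal of ENSG00000226958 it passed (-0.68, adjusted p = 0.0479), as it did after median-of-ratios rescaling (-0.63, adjusted p = 0.0362). Against Nrf2 siRNA the samples overlapped, and the double-siRNA mean was the higher one by 0.31 on the log2 scale (95% interval 0.01 to 0.61; limma, adjusted p = 0.717). The interaction, which asks whether the double siRNA differs from the sum of the 2 single effects, was 0.24 (95% interval -0.19 to 0.67; limma, adjusted p = 0.913).

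Taking the design as 2 factors, the average effect of Nrf2 siRNA compares the 6 samples with Nrf2 siRNA, alone or in the double, with the 6 samples without it. TXNRD1 was 246 to 383 TPM in the samples with Nrf2 siRNA and 497 to 574 TPM in those without, with no overlap. The log2 difference was -0.76 (SE 0.0996, 95% interval -0.98 to -0.55; limma, adjusted p = 0.0031). It fell in this comparison in each of 12 fits that left out 1 sample (log2 difference -0.80 to -0.72, adjusted p 0.0022 to 0.0175). The call against scramble alone was less stable: it held without Nrf2-siRNA replicate 1 (adjusted p = 0.038) and was lost without Nrf2-siRNA replicate 2 or 3 (adjusted p = 0.119 and 0.110) and without scramble replicate 1, 2 or 3 (adjusted p = 0.105, 0.119 and 0.0912). The average effect of Pink1 siRNA on TXNRD1 was 0.19 (95% interval -0.02 to 0.41; limma, adjusted p = 0.433).

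**Figure D1:**
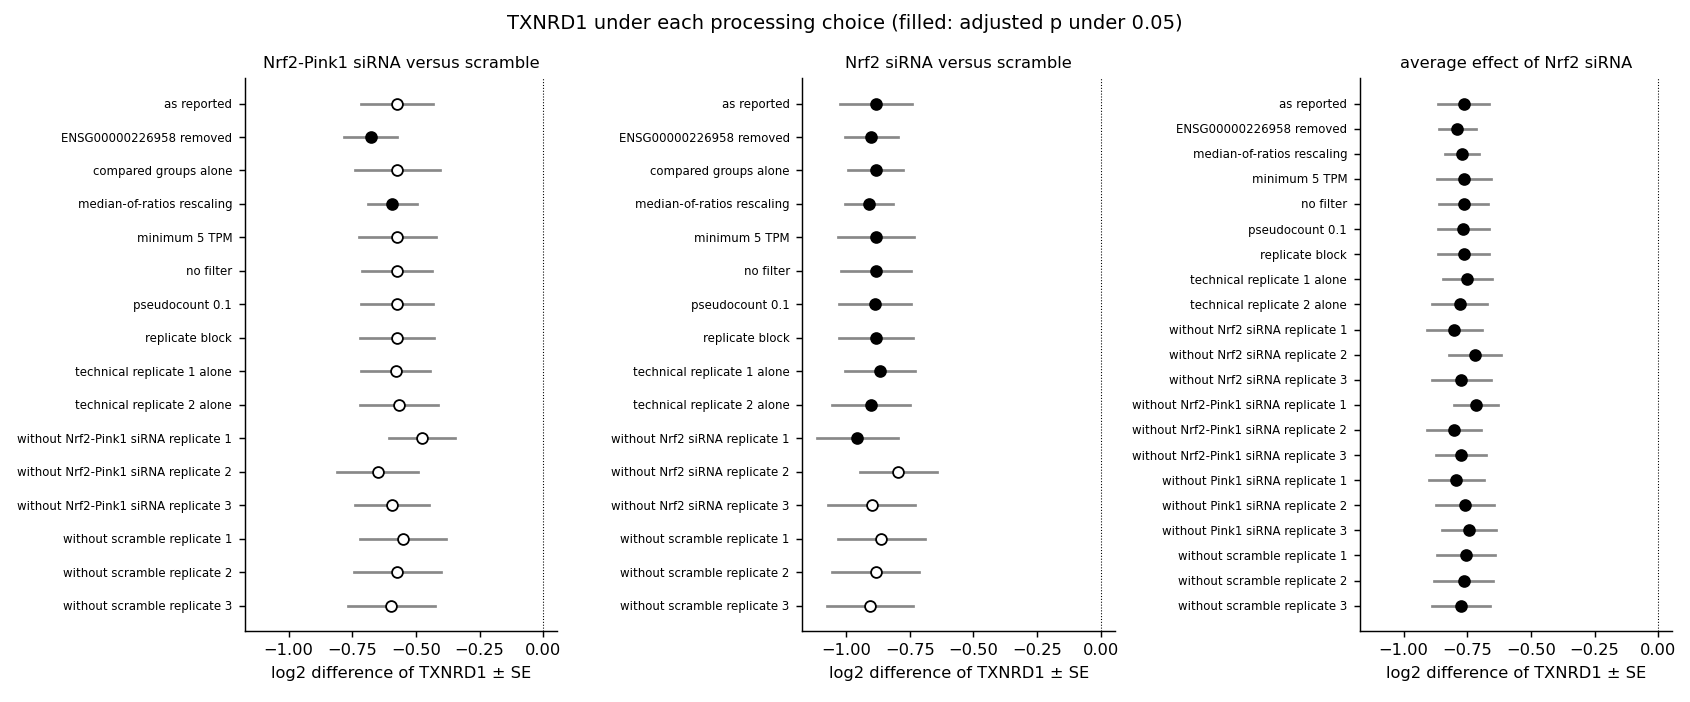
Log2 difference of TXNRD1 ± SE (x axis) under each processing choice (y axis) for the double siRNA against scramble, Nrf2 siRNA against scramble and the average effect of Nrf2 siRNA; filled points have an adjusted p under 0.05. All points lie below 0; the average effect passes in every choice, from -0.80 to -0.72 when 1 sample is left out.

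Over the 8 genes, the number called was 0 with the double siRNA against scramble, 1 with Nrf2 siRNA (TXNRD1, lower) and 0 with Pink1 siRNA, where 0.753%, 0.333% and 0.471% of all tested genes were called by limma. At an unadjusted p under 0.05, 1, 2 and 0 of the 8 passed, where 14.2%, 12.2% and 12.2% of all genes did. The double siRNA gave 0 calls against Pink1 siRNA and 0 against Nrf2 siRNA, where 0.0434% and 0.0145% of all genes were called, with 1 of the 8 at an unadjusted p under 0.05 in each, beside 5.8% and 6.95% of all genes. The average effect of Nrf2 siRNA gave 1 call (0.731% of all genes), that of Pink1 siRNA 0 (0.652% of all genes) and the interaction 0 (0.0% of all genes), with 1, 0 and 0 of the 8 at an unadjusted p under 0.05, beside 11.5%, 13.6% and 5.45% of all genes. The 3 comparisons with scramble share the same 3 scramble samples.

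**Figure D2:**
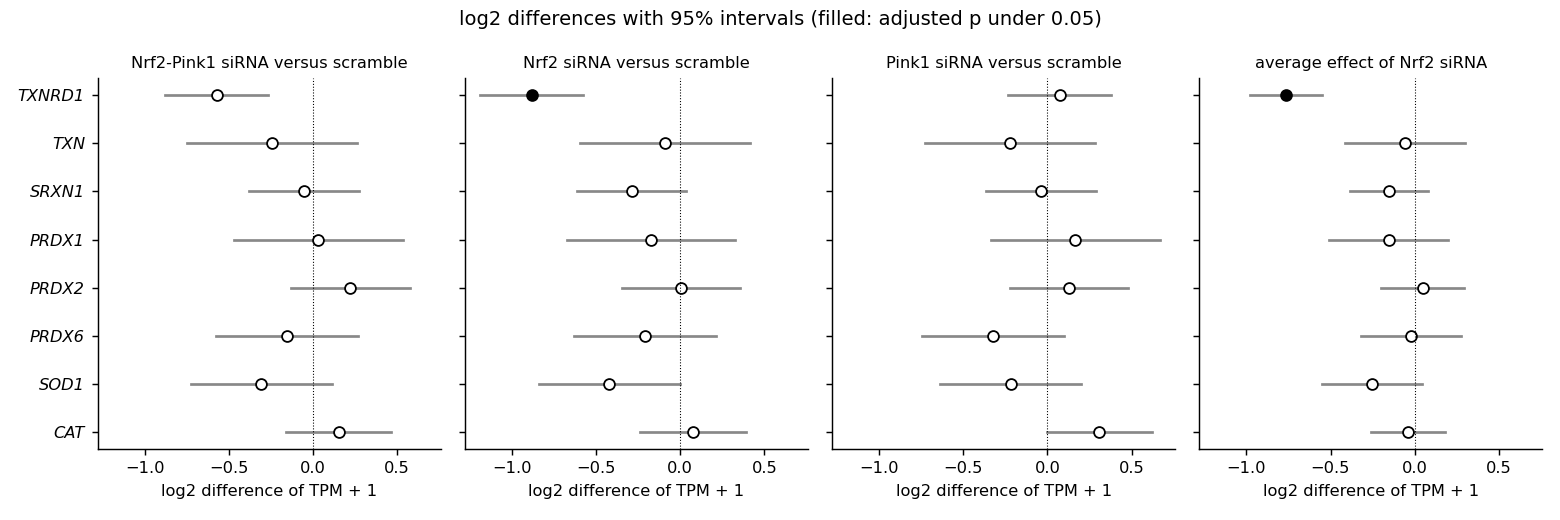
Log2 differences of TPM + 1 with 95% intervals for the 8 genes (y axis) in the 3 comparisons with scramble and in the average effect of Nrf2 siRNA; filled points have an adjusted p under 0.05. TXNRD1 is filled at -0.88 with Nrf2 siRNA and at -0.76 in the average effect, and the other 7 genes are open in every panel.

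TXN, the thioredoxin that the reductase serves, had the lowest mean TPM of the 8 genes in every group, although it overlapped SRXN1 with the double siRNA and with Nrf2 siRNA. It had 19.5, 38.1 and 42.7 TPM with the double siRNA, 41.3, 30.9 and 34.8 TPM with Nrf2 siRNA and 35.6, 29.1 and 32.3 TPM with Pink1 siRNA, against 37.3, 38.1 and 37.9 TPM with scramble. Double-siRNA replicate 1 was low, and the scramble samples were nearly equal. That replicate was still the lowest with ENSG00000226958 removed, at 33.3 TPM, against 54.0 and 50.6 TPM in the other double-siRNA samples. No difference passed: the log2 difference was -0.24 with the double siRNA, -0.09 with Nrf2 siRNA and -0.22 with Pink1 siRNA, with 95% intervals that reached from -0.75 to 0.41 (limma, adjusted p 0.691 to 0.923). TXN also had the largest spread of the 8, with an SD of 0.202 on the log2 scale between technical replicates and 0.320 between biological samples of a group. GENCODE release 29 names 7 pseudogenes after TXN, 3 after SOD1 and 1 after PRDX1, none of which had a row here, and TPM does not show how reads shared with such copies were assigned.

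SRXN1, the sulfiredoxin that repairs over-oxidised peroxiredoxins, had its lowest mean with Nrf2 siRNA. It had 36.1, 45.35 and 53.5 TPM with the double siRNA, 38.1, 40.25 and 34.6 TPM with Nrf2 siRNA and 41.5, 47.6 and 45.9 TPM with Pink1 siRNA, against 46.3, 46.3 and 45.8 TPM with scramble. All Nrf2-siRNA samples lay below all scramble samples, whereas the double-siRNA samples lay on both sides of them. The log2 difference with Nrf2 siRNA was -0.29 (95% interval -0.61 to 0.04; limma, adjusted p = 0.486). It was -0.05 with the double siRNA and -0.04 with Pink1 siRNA.

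PRDX1, which had the highest mean TPM of the 3 peroxiredoxins, varied widely within groups, with a coefficient of variation of 33.1% with the double siRNA and 23.1% with Nrf2 siRNA. It had 234, 371 and 469.7 TPM with the double siRNA, 374, 234 and 305 TPM with Nrf2 siRNA and 368, 406 and 362 TPM with Pink1 siRNA, against 372, 318 and 324 TPM with scramble. Every siRNA group overlapped scramble. On the log2 scale the difference was 0.03 with the double siRNA, -0.17 with Nrf2 siRNA and 0.17 with Pink1 siRNA, with 95% intervals from -0.67 to 0.67 (limma, adjusted p 0.81 to 0.97), and that of the double siRNA turned to -0.07 when ENSG00000226958 was removed.

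PRDX2, its close relative, had 167, 154 and 218 TPM with the double siRNA, 157, 143 and 158 TPM with Nrf2 siRNA and 139.7, 175 and 189 TPM with Pink1 siRNA, against 154, 139 and 164 TPM with scramble. The groups overlapped, and the log2 difference was 0.22 with the double siRNA, 0.00 with Nrf2 siRNA and 0.13 with Pink1 siRNA (limma, adjusted p 0.583 to 1.0). The double-siRNA interval ran from -0.13 to 0.57. Of 4 pseudogenes named after PRDX2, 1 had a row, at no more than 0.63 TPM.

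PRDX6, the peroxiredoxin that uses glutathione and also repairs oxidised phospholipids, had 212, 285 and 400.1 TPM with the double siRNA, 296, 252 and 290.0 TPM with Nrf2 siRNA and 235.5, 252 and 286 TPM with Pink1 siRNA, against 316, 312 and 341 TPM with scramble. All Nrf2-siRNA and all Pink1-siRNA samples lay below all scramble samples, and the double-siRNA samples overlapped them. On the log2 scale PRDX6 differed by -0.16 with the double siRNA, -0.21 with Nrf2 siRNA and -0.33 with Pink1 siRNA, none past the test (limma, adjusted p 0.528 to 0.777); the Pink1-siRNA interval ran from -0.75 to 0.10. With ENSG00000226958 removed, PRDX6 was at 365 to 381 TPM with Pink1 siRNA and 482 to 504 TPM with scramble, with a coefficient of variation of 2.18% and 2.21%, and the log2 difference of -0.40 still did not pass (adjusted p = 0.0829).

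**Figure D3:**
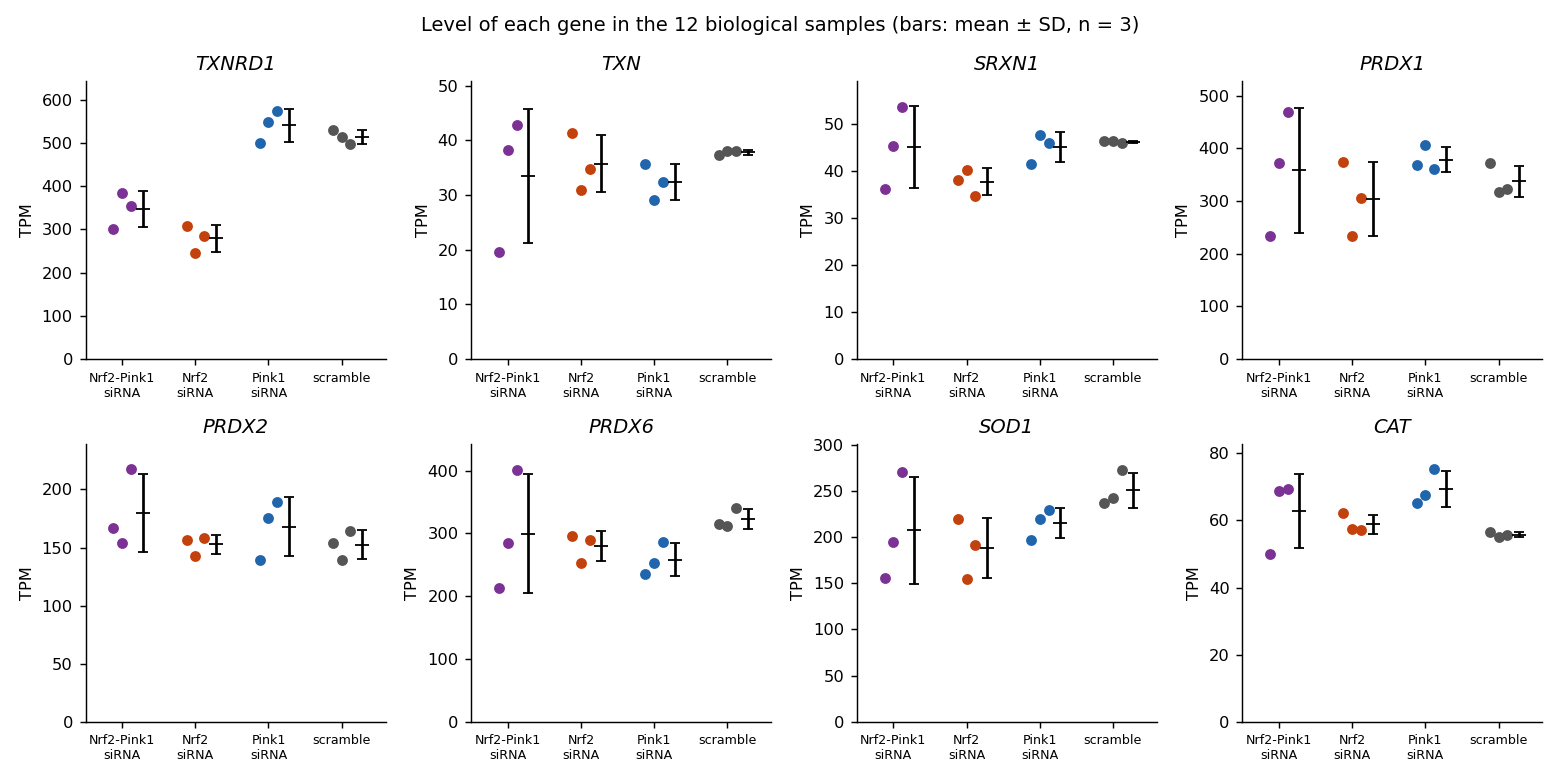
TPM (y axis) of each of the 8 genes in the 12 biological samples, grouped by siRNA (x axis), with points for replicates 1 to 3 from left to right and bars for the mean ± SD. TXNRD1 lies at 246 to 383 TPM in both groups with Nrf2 siRNA and at 497 to 574 TPM in the other groups; the double-siRNA points of PRDX6 lie at 212 to 400.1 TPM and those of SOD1 at 156 to 270.4 TPM.

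SOD1, the cytosolic copper-zinc superoxide dismutase, had 156, 195 and 270.4 TPM with the double siRNA, 219, 154 and 192 TPM with Nrf2 siRNA and 197, 219 and 229 TPM with Pink1 siRNA, against 236, 242 and 272 TPM with scramble. All single-siRNA samples lay below all scramble samples, and the double-siRNA samples overlapped them. The log2 difference was -0.31 with the double siRNA, -0.42 with Nrf2 siRNA and -0.22 with Pink1 siRNA. That of Nrf2 siRNA had a 95% interval of -0.84 to -0.001 and an adjusted p of 0.407 by limma. With ENSG00000226958 removed the double siRNA gave -0.41 (adjusted p = 0.0717), Nrf2 siRNA gave -0.44 (adjusted p = 0.0811) and Pink1 siRNA gave -0.29 (adjusted p = 0.230), so SOD1 passed on neither scale.

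CAT, the peroxisomal catalase, was the gene of the 8 with the highest Pink1-siRNA mean relative to scramble. It had 50.025, 68.7 and 69.4 TPM with the double siRNA, 62.2, 57.3 and 57.2 TPM with Nrf2 siRNA and 65.3, 67.6 and 75.4 TPM with Pink1 siRNA, against 56.6, 55.2 and 55.6 TPM with scramble. All Pink1-siRNA and all Nrf2-siRNA samples lay above all scramble samples. The Pink1-siRNA mean was 124.5% of scramble, at a log2 difference of 0.31 (95% interval -0.01 to 0.62; limma, adjusted p = 0.419), and the difference was 0.15 with the double siRNA and 0.08 with Nrf2 siRNA.

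Counted over the 8 genes, samples did not overlap scramble for 1 gene with the double siRNA (TXNRD1, lower), where 18.0% of all genes did not overlap. For Nrf2 siRNA the count was 5 (CAT higher; TXNRD1, SRXN1, PRDX6 and SOD1 lower), beside 22.9% of all genes. For Pink1 siRNA it was 4 (CAT higher; TXN, PRDX6 and SOD1 lower), beside 25.0% of all genes. Between the double siRNA and Pink1 siRNA 1 gene did not overlap (TXNRD1), beside 8.85% of all genes, and between the double siRNA and Nrf2 siRNA 0 did, beside 9.49%. With 3 samples against 3, an exact two-sided permutation test cannot give a p below 0.1 for any of them.

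With ENSG00000226958 removed, 5 genes did not overlap scramble with the double siRNA (TXNRD1, TXN, SRXN1, PRDX6 and SOD1, all lower), beside 21.9% of all genes. The counts were 4 with Nrf2 siRNA (TXNRD1, SRXN1, PRDX6 and SOD1, lower), beside 22.3%, and 4 with Pink1 siRNA (CAT higher; TXN, PRDX6 and SOD1 lower), beside 26.5%. This recount was added after the values were seen. Over the 8 genes the median log2 difference as deposited was -0.10 with the double siRNA, -0.19 with Nrf2 siRNA and 0.02 with Pink1 siRNA, against 0.01, 0.02 and 0.02 over all tested genes.

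In each siRNA group the sum of the 8 genes ran opposite to the share of ENSG00000226958, which leaves the remainder to all other genes. With the double siRNA the sum was 1176, 1541 and 1879 TPM in replicates 1, 2 and 3, at shares of 41.4, 29.4 and 15.5%. It was 1495, 1157 and 1356 TPM with Nrf2 siRNA, at shares of 29.9, 38.6 and 32.2%. Pink1 siRNA gave 1581, 1746 and 1794 TPM, at shares of 35.5, 32.3 and 24.9%. Scramble gave 1748, 1665 and 1738 TPM, at shares of 34.6, 36.4 and 32.4%, where the lowest share did not go with the highest sum. The double-siRNA mean was 185 TPM below the scramble mean, 6.91 TPM below it without double-siRNA replicate 1 and 358 TPM below it without replicate 3; the Nrf2-siRNA mean was 381 TPM below it. With ENSG00000226958 removed, a setting added after the values were seen, the sum was 2005, 2182 and 2224 TPM with the double siRNA, 2132, 1884 and 2001 TPM with Nrf2 siRNA and 2451, 2581 and 2388 TPM with Pink1 siRNA, against 2672, 2616 and 2571 TPM with scramble. On that scale all samples of both groups with Nrf2 siRNA lay below all scramble samples, by 482 TPM on average with the double siRNA and 614 TPM with Nrf2 siRNA. The TXNRD1 difference equalled 60.5% and 59.5% of those net differences. As deposited, the TXNRD1 difference equalled 90.4% of the net difference with the double siRNA and 61.6% of that with Nrf2 siRNA. With the double siRNA PRDX1, PRDX2 and CAT averaged above scramble, and the falls of the other genes were partly cancelled. That net difference was 6.91 TPM without replicate 1, so the 90.4% is not a stable share. The sum of the 7 other genes after removal was 1491, 1639 and 1804 TPM with the double siRNA, 1694, 1484 and 1581 TPM with Nrf2 siRNA and 1677, 1769 and 1623 TPM with Pink1 siRNA, all below the scramble samples at 1862, 1808 and 1835 TPM. On that scale the median log2 difference from scramble over all tested genes was -0.079, 0.002 and -0.036 in the same order of groups. Sums of other genes were not set beside these, so the lower sums cannot be called particular to the 7 genes.

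A ratio within each sample does not depend on that share. TXNRD1 divided by the sum of the 7 other genes was 0.345, 0.331 and 0.233 with the double siRNA and 0.259, 0.269 and 0.265 with Nrf2 siRNA. It was 0.461, 0.459 and 0.471 with Pink1 siRNA and 0.435, 0.446 and 0.401 with scramble. All 6 samples with Nrf2 siRNA lay below all 6 without it, so TXNRD1 and the other 7 genes changed unequally. TXNRD1 had the highest mean TPM of the 8 genes with Pink1 siRNA and scramble, and PRDX1 had it with the double siRNA and Nrf2 siRNA, although TXNRD1 and PRDX1 overlapped in both of these groups.

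**Figure D4:**
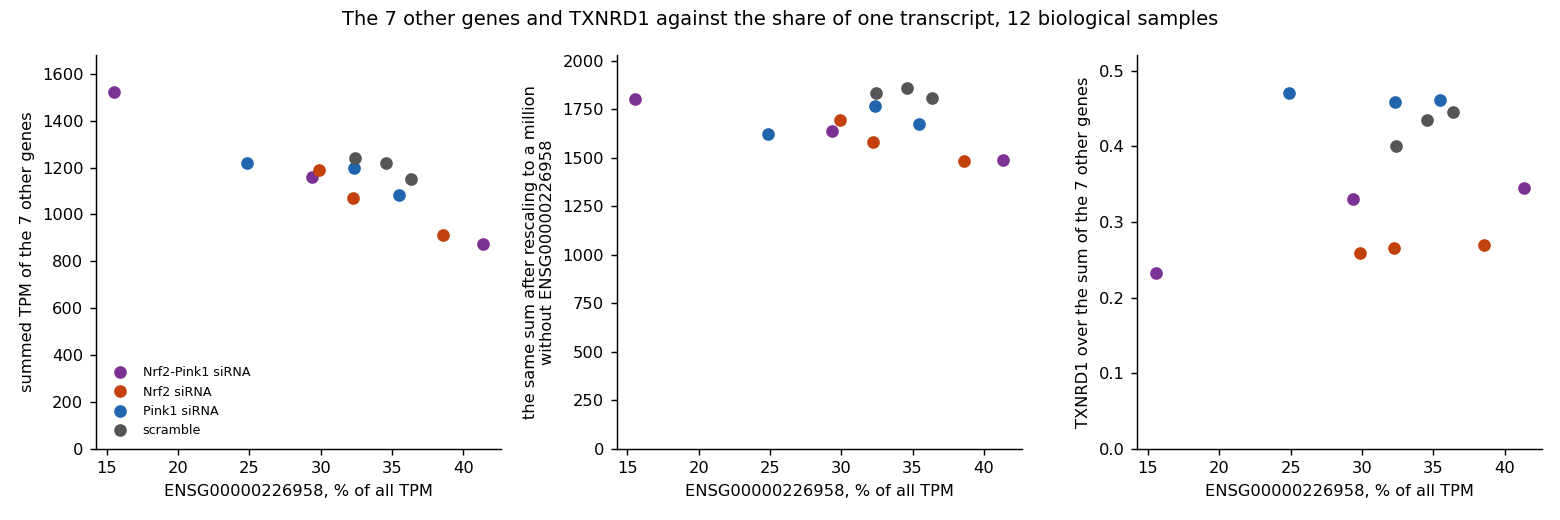
The summed TPM of the 7 other genes as deposited, the same sum after ENSG00000226958 was removed, and TXNRD1 divided by the deposited sum (y axes), against the share of ENSG00000226958 in percent of all TPM (x axes) in the 12 biological samples, coloured by group. In the ratio panel the samples with Nrf2 siRNA lie at 0.233 to 0.345 and those without it at 0.401 to 0.471.

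Among 4825 genes that had a symbol and averaged 20 TPM or more, NQO1 had the level pattern most like that of TXNRD1 over the 12 samples, with a Pearson r of 0.980 on the log2 scale. NFE2L2, the siRNA target, came next (0.970), followed by ALDH3A2 (0.961), IDH2 (0.958) and CCNG1 (0.940). These r describe 12 samples that share 4 groups, and carry no test. NQO1, a quinone reductase, stood at 60.3 ± 12.96 TPM with the double siRNA, 44.5 ± 4.79 TPM with Nrf2 siRNA, 173 ± 20.8 TPM with Pink1 siRNA and 160.5 ± 6.67 TPM with scramble. Within the system, the r with TXNRD1 was 0.626 for SOD1, 0.618 for SRXN1, 0.516 for PRDX1, 0.348 for CAT, 0.189 for TXN, 0.171 for PRDX6 and 0.0819 for PRDX2. Those 5 genes were picked for the highest r, so a lower r of the 7 was set by the choice. By r, SOD1 ranked 257, SRXN1 267 and PRDX1 491 of the 4825 genes, and PRDX2 ranked lowest of the 7, at 2471.

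**Figure D5:**
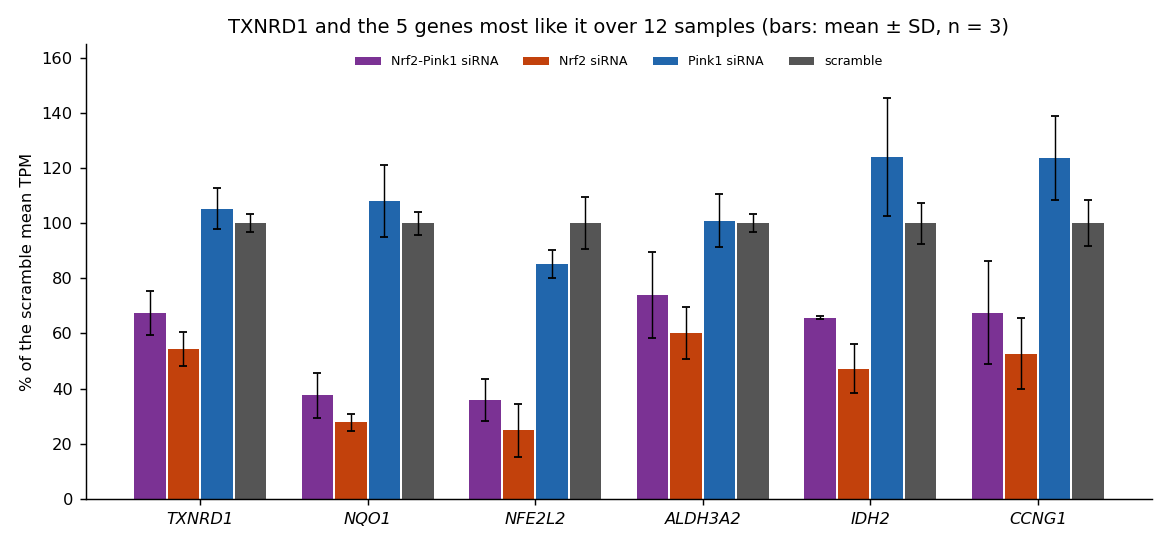
Mean TPM as percent of the scramble mean (y axis; bars, with SD over 3 samples as lines) for TXNRD1 and the 5 genes with the highest Pearson r with it, in the 4 siRNA groups. For all 6 genes both groups with Nrf2 siRNA are lower than the Pink1-siRNA and scramble groups; TXNRD1 stands at 67.5% with the double siRNA and 54.3% with Nrf2 siRNA.

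The wider pathway was read from 53 further genes, chosen from general knowledge with earlier results known, of which 50 were tested. Their median log2 difference was 0.05 with the double siRNA, -0.04 with Nrf2 siRNA and 0.08 with Pink1 siRNA, against 0.01, 0.02 and 0.02 over all tested genes. The calls numbered 0, 0 and 1, beside 0.753%, 0.333% and 0.471% of all genes. At an unadjusted p under 0.05 in the limma fit there were 3, 7 and 4 of the 50, beside 14.2%, 12.2% and 12.2% of all genes. In the average effects of Nrf2 siRNA and Pink1 siRNA 0 and 1 were called (0.731% and 0.652% of all genes), with 9 and 6 of the 50 at an unadjusted p under 0.05 (11.5% and 13.6% of all genes). The double siRNA against either single siRNA, and the interaction, gave 0 calls each, with 3 (against Pink1 siRNA), 3 (against Nrf2 siRNA) and 1 at an unadjusted p under 0.05, beside 5.8%, 6.95% and 5.45% of all genes.

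SOD3, the secreted superoxide dismutase, was the gene called higher with Pink1 siRNA. It had 25.0, 22.2 and 35.9 TPM with Pink1 siRNA, against 11.95, 13.7 and 16.2 TPM with scramble, with no overlap. The log2 difference was 0.92 (SE 0.181; limma, adjusted p = 0.0473), and the call was lost without any 1 of the 6 samples (Pink1-siRNA or scramble replicate 1, 2 or 3; log2 difference 0.72 to 1.06, adjusted p 0.0708 to 0.193). It was also lost in 6 of 9 other settings: no filter, ENSG00000226958 removed, the replicate number as a block, either technical replicate alone and the compared groups alone (adjusted p over the 9, 0.0310 to 0.112). SOD3 had 20.1 ± 1.72 TPM with the double siRNA.

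ARRDC3, an alpha-arrestin related to TXNIP, fell in the average effect of Pink1 siRNA. It averaged 11.3 ± 0.641 TPM with the double siRNA and 8.68 ± 0.784 TPM with Pink1 siRNA, against 20.5 ± 5.71 TPM with Nrf2 siRNA and 13.2 ± 1.56 TPM with scramble (SD, n = 3 each). All 6 samples with Pink1 siRNA lay at 12.03 TPM or below, overlapping the lowest scramble sample at 11.4 TPM. The log2 difference was -0.66 (SE 0.127; limma, adjusted p = 0.0378); the call held without Nrf2-siRNA replicate 3 or double-siRNA replicate 1 or 3, and was lost without any of the other 9 samples (adjusted p 0.050 to 0.115). It was lost too with no filter and with technical replicate 2 alone, 2 of 8 other settings (adjusted p over the 8, 0.0256 to 0.203). Against scramble ARRDC3 was not called with Pink1 siRNA (log2 difference -0.55; limma, adjusted p = 0.224). Nor was it called with the double siRNA (-0.20, adjusted p = 0.668) or with Nrf2 siRNA, where it was higher (0.57, adjusted p = 0.210).

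None of the 3 other peroxiredoxins, the 3 thioredoxins and thioredoxin reductases from elsewhere in the cell and the 8 thioredoxin-like proteins on the list was called in any of the 8 comparisons by limma. PRDX5, the most abundant of the other peroxiredoxins, stood at 279 ± 63.0 TPM with the double siRNA, 260.3 ± 15.0 TPM with Nrf2 siRNA, 289 ± 23.5 TPM with Pink1 siRNA and 264 ± 0.835 TPM with scramble. TXN2, the mitochondrial thioredoxin, stood at 65.2 ± 9.67 TPM with the double siRNA, 62.7 ± 8.20 TPM with Nrf2 siRNA, 60.0 ± 8.31 TPM with Pink1 siRNA and 58.1 ± 7.03 TPM with scramble. TXNDC5, a thioredoxin-like protein of the endoplasmic reticulum, averaged higher in every siRNA group than with scramble. It stood at 445 ± 109 TPM with the double siRNA, 335 ± 31.6 TPM with Nrf2 siRNA, 345 ± 25.4 TPM with Pink1 siRNA and 272 ± 17.7 TPM with scramble. The log2 differences from scramble were 0.68, 0.29 and 0.34 (limma, adjusted p = 0.0944, 0.543 and 0.456).

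On the glutathione side, GPX4, the peroxidase that protects membrane lipids, stood at 268 ± 50.6 TPM with the double siRNA, 207 ± 23.5 TPM with Nrf2 siRNA, 295 ± 41.9 TPM with Pink1 siRNA and 243 ± 59.1 TPM with scramble. GSR, the glutathione reductase and chemical counterpart of TXNRD1, had the lowest average effect of Nrf2 siRNA of the 50 genes, at -0.63 (limma, adjusted p = 0.205), and was chosen for mention after its values were seen. RRM1, the large subunit of ribonucleotide reductase, averaged 147 ± 34.7 TPM with the double siRNA, 127 ± 9.13 TPM with Nrf2 siRNA, 171 ± 7.17 TPM with Pink1 siRNA and 162 ± 9.36 TPM with scramble. RRM1 was not called in any comparison. APEX1, a DNA repair enzyme that thioredoxin reduces, averaged 167.5 ± 35.5 TPM with the double siRNA, 136 ± 12.03 TPM with Nrf2 siRNA, 173 ± 24.1 TPM with Pink1 siRNA and 153 ± 10.0 TPM with scramble. SEPHS2, which makes the selenium donor for selenoproteins, averaged 38.8 ± 6.38 TPM with the double siRNA, 32.45 ± 1.28 TPM with Nrf2 siRNA, 39.2 ± 4.73 TPM with Pink1 siRNA and 36.9 ± 5.01 TPM with scramble. The regulator MLXIP averaged 15.5 ± 0.628 TPM with the double siRNA, 16.0 ± 2.54 TPM with Nrf2 siRNA, 13.3 ± 0.988 TPM with Pink1 siRNA and 11.6 ± 0.645 TPM with scramble. In the same order of groups the copper chaperone CCS, which loads SOD1, averaged 25.5 ± 7.47, 24.4 ± 2.39, 25.7 ± 7.69 and 17.3 ± 3.13 TPM. Both had their lowest mean with scramble, and neither was called in any comparison.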

How the data were processed

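RNA sequencing gave 24 deposited samples of ARPE-19 cells. Per the labels' protocols, libraries were stranded, made from mRNA and read as pairs. Per the submitters' processing notes, the tools were STAR, RSEM and edgeR and the builds GRCh37 and hg19; their versions and roles are not given in the sources. The authors deposited TPM, to at most 2 decimals, with columns that sum to 999678 to 999945. TPM does not hold read numbers, so depth is unknown.

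Technical replicates were averaged, which left 12 samples, and log2(TPM + 1) of 13810 genes that averaged 1 TPM or more was fitted with limma 3.58.1 in R 4.3.3 (4 groups, trended prior, 8 residual and 4.93 prior degrees of freedom). The 8 comparisons were two-sided, with Benjamini-Hochberg adjustment over all genes; a call is an adjusted p under 0.05. The fold changes are of TPM + 1, which understates changes of low genes. The fit was tested on simulated data. Alternatives were another pseudocount (0.1), no filter, a minimum of 5 TPM, removal of ENSG00000226958 with rescaling, median-of-ratios rescaling, a block for the replicate number, single technical replicates, the compared groups alone and each sample left out.

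Named are the 9 genes, both siRNA targets, called genes of the pathway list or else the most abundant of each of its groups, and the 5 genes most like TXNRD1. The gene that this rule names for 1 group of the pathway list is not reported here. Members, lists and tests were chosen with earlier results of these data known, including the fall of TXNRD1.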

Additional observations from a re-analysis of the deposited data

How the results depend on the processing

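Of 64 fold changes (8 genes in 8 comparisons) under 1080 alternatives, 1071 kept their side of the threshold, 5 lost a call, 4 gained one and 0 reversed a call; all 34 alternative values past the test were of TXNRD1. A gene of the 8 was called for the double siRNA against scramble and against Pink1 siRNA (1 each, against 0) after removal of ENSG00000226958 and after median-of-ratios rescaling; leaving out 1 sample gave 0 to 1 with Nrf2 siRNA. Genes not overlapping scramble with the double siRNA numbered 5 after that removal, against 1.

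Counts over all genes moved more; the cause was not tested. With ENSG00000226958 removed, the calls numbered 304 for the double siRNA against scramble (42.4% higher, against 62.5%), 131 for Nrf2 siRNA, 172 for Pink1 siRNA (51.2% higher, against 75.4%), 22 for the double siRNA against Pink1 siRNA, 3 for it against Nrf2 siRNA (33.3% higher, against 0.0% of 2), 248 and 330 for the average effects of Nrf2 siRNA and Pink1 siRNA (the second 35.2% higher, against 50%) and 2 for the interaction. In the same order, median-of-ratios rescaling gave 333, 148, 171 (62.6% higher), 13 (61.5% higher, against 50%), 2, 277, 351 and 2. As deposited they numbered 104, 46, 65, 6, 2, 101, 90 and 0, and the median of all genes moved by less than 0.1. The compared groups alone gave 20, 2, 0 and 195 for the double siRNA against scramble, Pink1 siRNA and Nrf2 siRNA, and for Pink1 siRNA against scramble. No filter gave 64 for the double siRNA, 40 for Pink1 siRNA and 39 for the average effect of Pink1 siRNA. Technical replicate 1 alone gave 21 for Nrf2 siRNA, 40 for Pink1 siRNA, 1 for the double siRNA against each single siRNA and 55 for the average effect of Pink1 siRNA. Technical replicate 2 alone gave 48 for the double siRNA, 34 for Pink1 siRNA, 0 for the double siRNA against Nrf2 siRNA, and 56 and 17 for the average effects of Nrf2 siRNA and Pink1 siRNA. A minimum of 5 TPM gave 3 for the interaction.

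Same-numbered samples did not deviate together over the tested genes (r of -0.0846 to 0.113). A low r cannot show that the numbers do not pair samples, since a small shared part may be hidden by a larger spread. The replicate block gave 30 calls for Nrf2 siRNA, 40 for Pink1 siRNA and 1 for the double siRNA against Pink1 siRNA. With that block TXNRD1 kept both calls (limma, adjusted p = 0.0416 and 0.00837). Leaving out 1 sample gave 19 to 240 for the double siRNA, 6 to 31 for Nrf2 siRNA, 22 to 40 for Pink1 siRNA, 1 to 16 and 1 to 4 for the double siRNA against Pink1 siRNA and Nrf2 siRNA, 41 to 265 and 28 to 204 for the average effects of Nrf2 siRNA and Pink1 siRNA, and 0 to 4 for the interaction; in each of these but Nrf2 siRNA and Pink1 siRNA against scramble, the highest count, tied in some, came without double-siRNA replicate 1.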
